A study of Harpegnathos saltator with 19 samples.

Results

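The genes sing (LOC105191433), Np (LOC105189898) and Gasp (LOC105191838) were followed in the brain of the ant Harpegnathos saltator after injection of a hormone. They are 3 of the 14001 genes in the expression table, and all 3 were among the 9381 genes that could be tested. They were chosen because each averaged under 1 FPKM (fragments scaled to gene length and library size, the deposited unit) in control ants and was higher after the moulting hormone. The 20E and DMSO libraries therefore chose the members, and their difference is given as a description with no test. Each library held the central brain of a single worker, dissected 10 h after an injection into the head. The groups were 7 ants given 100 ng of 20-hydroxyecdysone (20E), the moulting hormone, 7 given 100 ng of juvenile hormone III (JH3) and 5 given the DMSO control. Both hormones were dissolved in glucose solution, and the labels used here give no amount for the DMSO injection. The samples carry 2 run labels: 190514 covers replicates 1 to 3 of each group, and 200212 covers the later ones (4 to 7 for the hormones, 4 and 5 for DMSO).

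20E binds a nuclear receptor, EcR with its partner Usp, and this receptor switches on early genes such as E75 and Hr4, which encode nuclear receptors themselves. In Drosophila, ecdysone pulses time moulting, the deposition of cuticle and the remodelling of tissues at metamorphosis. The roles of the 3 genes are known from Drosophila: sing (singles bar) encodes a membrane protein with a MARVEL domain that is needed for myoblasts to fuse. Np (Notopleural) encodes a membrane-anchored serine protease that shapes the apical extracellular matrix of epithelia such as the tracheae. Gasp encodes a secreted chitin-binding protein of the tracheal lumen and the cuticle.

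The libraries held 14.05 to 26.09 M reads on genes, with a median of 18.31 M. E75 averaged 74.4 ± 11.5 FPKM (SD, n = 5) with DMSO, 619 ± 137 (n = 7) with 20E and 170 ± 45.2 (n = 7) with JH3. The neuronal synaptic gene nSyb, a marker of the labelled tissue, averaged 162, 169 and 155 FPKM with DMSO, 20E and JH3, and the glial gene repo 37.3, 30.3 and 29.1. Several libraries stood apart. The authors' scaling of 20E replicate 6 was 0.763 of what its total reads would give, the lowest of the 19 libraries (highest 1.125). FPKM values are divided by this scaling, so its low value raised them in this library. It also held the highest sing, Np and Gasp in FPKM, and how high they stood depends in part on the scaling. Gasp was high in replicate 2 of every group as well. The main results on Gasp are given with and without them.

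All 3 genes were detected in all 19 libraries, with at least 3 reads in each. The FPKM of a library can be turned back into whole reads, and 3 reads are taken here as the detection level. For sing, 3 reads corresponded to 0.061, 0.0736, 0.0565, 0.0889 and 0.0972 FPKM in DMSO replicates 1 to 5. In 20E replicates 1 to 7 the level was 0.0962, 0.0693, 0.0785, 0.0853, 0.111, 0.116 and 0.105 FPKM. In JH3 replicates 1 to 7 it was 0.114, 0.0663, 0.0615, 0.0899, 0.104, 0.105 and 0.0856 FPKM. The level follows the length of the gene, so in every library it was 1.168 times that of sing for Gasp (1562 counted bases) and 0.243 times that of sing for Np (7498 bases, against 1825 for sing). It thus ran from 0.0661 to 0.136 FPKM for Gasp and from 0.0138 to 0.0283 for Np. Values of sing and Gasp outside the 20E group rest on few reads: fewer than 10 reads were held by 2 DMSO and 2 JH3 libraries for sing and by 2 DMSO and 4 JH3 libraries for Gasp. No library held fewer than 24 reads of Np. By mean FPKM in DMSO, sing stood at percentile 24.1, Np at 31.1 and Gasp at 30.2 of all genes. In 20E they stood at 57.7, 53.7 and 49.2.

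The myoblast fusion gene sing went from at most 14 reads per library in control ants to at least 87 after 20E. With DMSO it measured 0.244, 0.245, 0.264, 0.237 and 0.0972 FPKM in replicates 1 to 5, from 12, 10, 14, 8 and 3 reads. Replicate 5 was the lowest and sat at its detection level, with a counting interval (exact Poisson, 95%) of 0.02 to 0.284 FPKM. The intervals of the 5 controls all share the values from 0.144 to 0.284, so they do not set the control ants apart. After 20E sing measured 2.79, 6.33, 6.07, 3.58, 5.32, 7.89 and 4.08 FPKM in replicates 1 to 7, from 87 to 274 reads. Every 20E library lay above every control, and the lowest was 10.6 times the highest control. The means were 0.218 ± 0.068 FPKM (SD, n = 5) and 5.15 ± 1.78 (n = 7), a ratio of 23.7. The fitted difference in log2(FPKM + 0.5) was 2.92 ± 0.19 (SE), the 6th highest of the 9381 tested genes. This scale understates the change of low genes.

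Np, the membrane serine protease, was the most even of the 3 in control ants. It measured 0.708, 0.675, 0.523, 0.555 and 0.599 FPKM with DMSO, from 76 to 143 reads. After 20E it measured 2.63, 4.11, 6.02, 3.09, 3.88, 6.74 and 3.62 FPKM in replicates 1 to 7, from 337 to 945 reads. The groups did not overlap, and the lowest 20E library was 3.71 times the highest control. The mean went from 0.612 ± 0.0784 FPKM (SD, n = 5) to 4.3 ± 1.52 (n = 7), a ratio of 7.02. The fitted log2 difference was 2.04 ± 0.18 (SE), the 13th highest.

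Gasp, the chitin-binding protein, was higher after 20E in most ants, and its groups overlapped. With DMSO it measured 0.357, 1.52, 0.154, 0.346 and 0.303 FPKM in replicates 1 to 5, from 7 to 53 reads. After 20E it measured 1.69, 5.02, 2.87, 1.46, 1.94, 8.27 and 2.32 FPKM, from 44 to 186 reads. DMSO replicate 2 lay just above the lowest 20E library, so 6 of the 7 20E libraries exceeded every control. The means were 0.536 ± 0.556 FPKM (SD, n = 5) and 3.37 ± 2.47 (n = 7), a ratio of 6.29, and the fitted log2 difference was 1.88 ± 0.39 (SE), the 16th highest. Without replicate 2 of every group and 20E replicate 6, Gasp averaged 0.29 ± 0.0935 FPKM (n = 4) with DMSO and 2.06 ± 0.557 (n = 5) with 20E. The log2 difference was then 1.68 ± 0.2 (SE), and the groups no longer overlapped. These libraries were left out because Gasp was high in them. The lack of overlap and the smaller SE follow from that choice, and nothing is read from them.

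**Figure D1:**
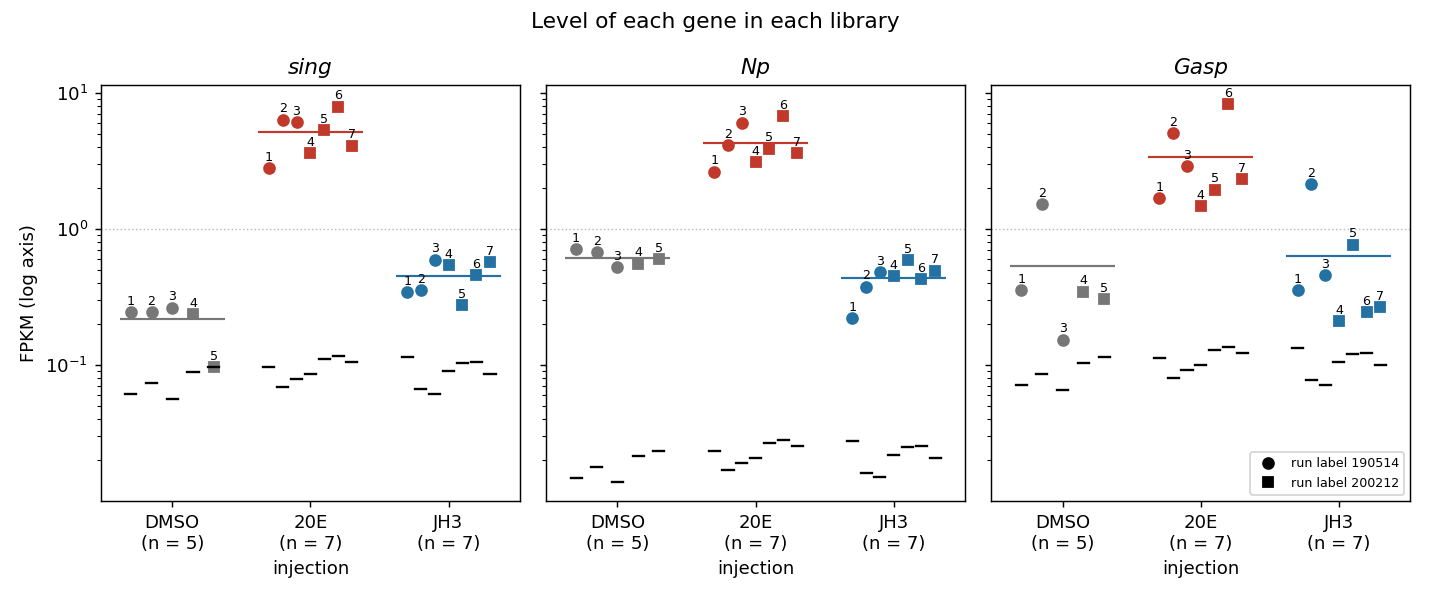
FPKM (log axis) of sing, Np and Gasp in each library by injection, with the replicate number above each point. Circles and squares are the run labels, the coloured lines are group means, the short black lines are the level of 3 reads in each library, and the dotted line is 1 FPKM. The 7 20E libraries lie above all controls for sing and Np, and Gasp is high in replicate 2 of each group.

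Of the 9381 tested genes, 313 (3.34%) differed between 20E and DMSO, of which 243 (2.59%) were higher in 20E at the threshold used (limma, adjusted p under 0.05), and 152 (1.62%) had every 20E library above every control. The rule used this contrast, so nothing is read from the members' place among them. A low control level was shared by 22 of the 243 genes. Of these, 7 have a symbol other than a LOC number: the 3 members, Cyp18a1 (a P450 that inactivates ecdysone, 0.62 FPKM with DMSO), Ets98B (0.67), bark (0.807) and Traf4 (0.904). The gene just inside the limit of 1 FPKM was LOC105185734 at 0.997, and the gene just outside was ptc, the Hedgehog receptor, at 1.01. The members entered the test only through samples in which they were high: sing and Np reached 1 FPKM in the 7 20E libraries alone, and Gasp in 9 libraries, which added replicate 2 of DMSO and of JH3. In bulk brain tissue, fewer cells of a type and less RNA per cell cannot be told apart.

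The differences had the same direction within each run label. With 190514 alone, the 20E minus DMSO difference on the log2 scale was 2.82 for sing, 2.01 for Np and 1.72 for Gasp. With 200212 alone it was 3.05, 2.11 and 2. Without replicate 2 of every group and 20E replicate 6 it was 2.74 for sing and 1.94 for Np.

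JH3 libraries took no part in choosing the genes, but the genes were picked for a low mean in DMSO, and sing and Np passed the filter only through 20E. The tests of JH3 against DMSO are therefore not free of the rule, and nothing is supported with them. After JH3, sing measured 0.342, 0.354, 0.595, 0.54, 0.276, 0.456 and 0.57 FPKM in replicates 1 to 7, from 8 to 29 reads. All 7 values lay above all 5 controls, with the lowest 1.05 times the highest control. Such a complete separation upwards was found in 54 of the 9381 tested genes (0.576%). The mean was 0.448 ± 0.126 FPKM (SD, n = 7), a ratio of 2.06 to DMSO. The fitted log2 difference of 0.4 ± 0.19 (SE), with a 95% interval of -0.01 to 0.8, did not pass the test (limma, unadjusted p = 0.0549, adjusted p = 0.622). The size depends on the scale: it was 0.8 with a pseudocount of 0.1 (limma, unadjusted p = 0.00661) and 1.02 with voom, limma's method for counts, on the reads (unadjusted p = 0.0231). Over the alternatives the adjusted p ran from 0.255 to 0.998. The difference was 0.3 within 190514 and 0.52 within 200212. The counting intervals of sing in DMSO replicates 1 to 4 overlapped those of all 7 JH3 libraries. Overlap between single libraries cannot decide whether the groups differ beyond counting error, which was not tested. In all, sing had 47 reads in the 5 DMSO libraries and 113 in the 7 JH3 libraries.

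Np and Gasp showed no difference between JH3 and DMSO that passed the test. After JH3, Np measured 0.222, 0.377, 0.484, 0.452, 0.588, 0.427 and 0.493 FPKM, from 24 to 97 reads. These overlapped the controls, and 6 of the 7 lay below the lowest control of 0.523. The mean was 0.435 ± 0.114 FPKM (SD, n = 7), and the fitted log2 difference was -0.27 ± 0.18 (SE; 95% interval -0.64 to 0.1; limma, adjusted p = 0.672), with -0.41 in run label 190514 and -0.12 in 200212. It was -0.46 with a pseudocount of 0.1 and -0.52 with voom. Gasp measured 0.355, 2.12, 0.455, 0.21, 0.766, 0.246 and 0.267 FPKM after JH3, from 6 to 82 reads. Replicate 2 was again the highest. The mean was 0.631 ± 0.683 FPKM (SD, n = 7), or 0.383 ± 0.207 (n = 6) without replicate 2. The log2 difference was 0.15 ± 0.39 (SE; 95% interval -0.66 to 0.96; limma, adjusted p = 0.885), with 0.31 in 190514 and 0.04 in 200212. It was -0.01 without DMSO replicate 3 and -0.09 without JH3 replicate 2, so its direction turned on single libraries. Among all tested genes 87 (0.927%) passed in this comparison, and 137 without 20E replicate 6, which enters it only through the shared fit.

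Against JH3 as the reference, the 20E libraries were higher for all 3 genes. These comparisons share the 20E libraries with the rule and are descriptions. The log2 difference between 20E and JH3 was 2.52 ± 0.18 (SE) for sing, 2.31 ± 0.16 for Np and 1.73 ± 0.35 for Gasp. Every 20E library exceeded every JH3 library for sing and Np, and 4 of 7 did for Gasp, the other 3 lying below JH3 replicate 2. Separation of this kind was seen in 1.75% of the tested genes. Of the early genes, E75 rose by 1.08 ± 0.13 and Hr4 by 0.63 ± 0.14 on the log2 scale between DMSO and JH3 (limma, adjusted p = 0.000132 and 0.0322), whereas none of the 3 members passed that test. Whether the members and the early genes differ in their response to JH3 was not tested.

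**Figure D2:**
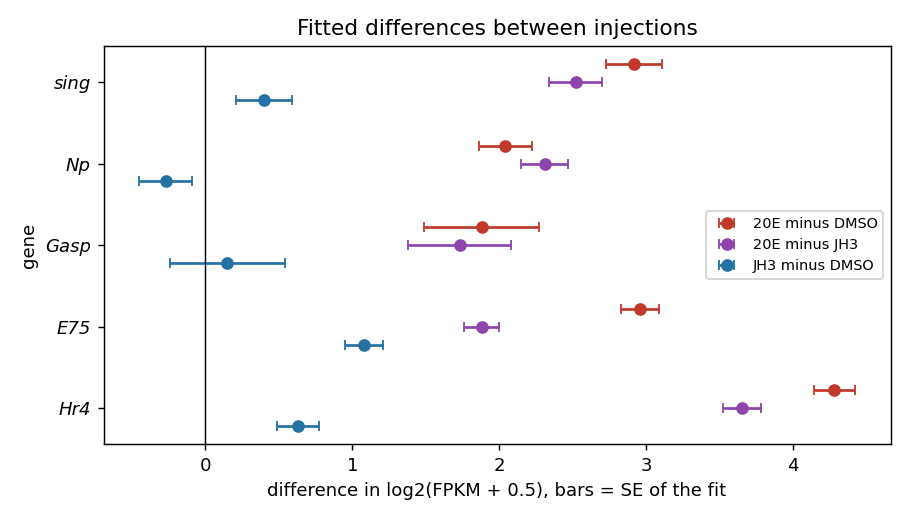
Fitted differences in log2(FPKM + 0.5) between injections, with bars for the SE, for sing, Np, Gasp and the early genes E75 and Hr4. The 3 members lie between 1.73 and 2.92 in both comparisons of 20E and between -0.27 and 0.4 for JH3 minus DMSO, where E75 lies at 1.08.

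FPKM is per length, so levels of the genes can be set side by side within a library. The order of sing and Np differed between the groups. In control ants sing was below Np in all 5 libraries, at 0.16 to 0.5 times its level. After 20E sing was above Np in all 7, at 1.01 to 1.54 times. After JH3 it was above Np in 5 of 7 libraries, with a median ratio of 1.16 and a range of 0.47 to 1.54. The lowest JH3 ratio lay inside the range of the controls, and the ratio was not tested. Gasp exceeded Np in 1 of 5 control, 2 of 7 20E and 3 of 7 JH3 libraries. In the 20E group the means of 5.15, 4.3 and 3.37 FPKM for sing, Np and Gasp differed by less than the SD of Gasp, while sing was above Np within each ant.

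**Figure D3:**
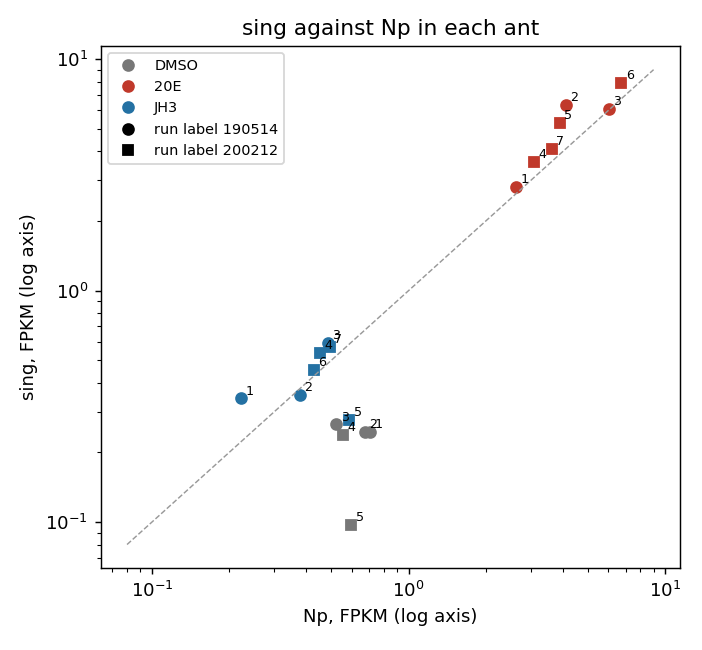
sing against Np in FPKM (both axes log) in each of the 19 ants, with the replicate number beside each point, colours for the injection and shapes for the run label. The dashed line marks equal levels: all 7 20E ants lie on its upper side and all 5 DMSO ants on its lower side.

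The ants of the 20E group differed in how high the genes were. The SD of log2(FPKM + 0.5) between 20E ants was 0.47 for sing, 0.44 for Np and 0.78 for Gasp, against a median of 0.28 over all tested genes. These are percentiles 84.6, 80.9 and 96.6. Gasp was also among the most variable genes with DMSO (percentile 92.5) and JH3 (95.2). sing stood at percentile 15.4 with DMSO and 32.6 with JH3, and Np at 6 and 30.1, although the added 0.5 compresses low values. Among the 500 tested genes nearest in level, sing stood at 8.2 with DMSO and 16.8 with JH3, and Np at 2 and 14.2. With 20E they stood at 83.6 and 81.4 on this measure. Without replicate 2 of every group and 20E replicate 6, Gasp stood at percentile 27.6 with DMSO, 76.5 with 20E and 62.7 with JH3. These libraries were left out because Gasp was high in them, so a lower place for Gasp follows from that choice. sing and Np then both stood at 87.9 with 20E.

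Within the 7 20E ants the 3 genes were compared with each other and with E75 and Hr4, in 9 pairs, after removing the mean of each run label. The exact permutation test (two-sided) moved libraries within run labels, in 144 orders, so its smallest p is 0.00694. For sing and Np, Pearson's r was 0.91 (permutation p = 0.0139, adjusted over 9 pairs 0.0625) and Spearman's rho 0.96 (p = 0.0278, adjusted 0.104). For sing and Gasp r was 0.86 (permutation p = 0.0278, adjusted 0.0833) and rho 0.93 (p = 0.0208, adjusted 0.104). For Np and Gasp r was 0.78 (permutation p = 0.0833, adjusted 0.175) and rho 0.89 (p = 0.0347, adjusted 0.104). No pair passed after adjustment. High r was common among these 7 ants: it was above 0.5 for 31.8% of all tested genes with sing. The share was 34% with Np and 33.7% with Gasp. Ranked by r with sing, Np was at rank 204 and Gasp at rank 551. Ranked by r with Np, Gasp was at rank 1319. Leaving out the 2 libraries farthest from the median of the first gene took r to 0.36 for sing with Np and to 0.34 for sing with Gasp (both without replicates 1 and 6). These relations did not hold without both ants, whose removal also narrows the range of sing. Without replicate 1 or replicate 6 alone, r was 0.86 and 0.85 for sing with Np, and 0.88 and 0.8 for sing with Gasp. For Np with Gasp, without replicates 6 and 3, r was 0.95.

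E75 followed Np most closely among the ants, with r = 0.94 (permutation p = 0.00694, the smallest the design can give; adjusted 0.0625) and rho = 0.86 (p = 0.0486, adjusted 0.109). Ranked by r with Np among all tested genes, E75 was at rank 120. Without replicates 6 and 3, r between E75 and Np was 0.67. E75 with sing gave r = 0.74 (permutation p = 0.0972, adjusted 0.175) and rho = 0.75 (p = 0.104, adjusted 0.156), and r = 0.13 without replicates 1 and 6. E75 with Gasp gave r = 0.68 (permutation p = 0.125, adjusted 0.188) and rho = 0.75 (p = 0.0972, adjusted 0.156), and r = 0.85 without replicates 6 and 2. For Hr4, r was 0.54 with sing, 0.6 with Np and 0.46 with Gasp (permutation p = 0.236, 0.181 and 0.465; adjusted 0.266, 0.232 and 0.465), and rho 0.43, 0.57 and 0.32 (permutation p = 0.403, 0.278 and 0.597; adjusted 0.453, 0.357 and 0.597). Without the 2 farthest libraries these r were 0.37, -0.13 and -0.2. Several r were lower with scaling to total reads, which changes 20E replicate 6 most. They were then 0.53, 0.87 and 0.34 for E75 with sing, Np and Gasp, and 0.21, 0.28 and 0.06 for Hr4. Between the members r was then 0.87 for sing with Np, 0.79 for sing with Gasp and 0.68 for Np with Gasp. Their adjusted permutation p was 0.167, 0.156 and 0.203. With run means kept, E75 gave 0.62, 0.76 and 0.5.

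Over all 19 libraries, with run means removed, the genes with the pattern most like each member were ranked by Pearson's r of log2(FPKM + 0.5). This r mainly carries the difference between 20E and the other groups and is a description. For sing the leading genes were LOC112588181 (r = 0.987; 0.867 FPKM with DMSO, 17 with 20E and 1.05 with JH3), Hr4 (0.974), LOC105185734 (0.968), LOC105182182 (0.968) and Np (0.966). For Np they were LOC105189505 (0.985), tacc, a gene of microtubule organisation in Drosophila (0.98), LOC112588181 (0.979), the cadherin gene Cad74A (0.976) and LOC105190091 (0.973), with sing at rank 10. Gasp had other neighbours in this ranking: bark, a gene of tricellular junctions in Drosophila (0.948), NAT1, a translation factor (0.934), LOC105182453 (0.933), LOC105185550 (0.931) and ptc (0.92). On the list of Gasp, Np was at rank 60 (r = 0.858) and sing at rank 77 (0.845).

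In the DMSO and JH3 libraries Gasp varied with genes of the chitin and apical matrix lists. The 4 libraries with the highest Gasp beside their group were replicate 2 of DMSO (1.52 FPKM), of 20E (5.02) and of JH3 (2.12), and 20E replicate 6 (8.27). LOC105189829, a protein-coding gene with no symbol, measured 6.56, 13.5, 13.4 and 14.6 FPKM in these 4 libraries, and between 0 and 2.02 in the other 15. Over the 12 DMSO and JH3 libraries, with the means of each group and run label removed, the genes most like Gasp were LOC105189829 (r = 0.923), nahoda (0.922), pot, which encodes a zona pellucida domain protein of the apical matrix (0.918), LOC105188015 (0.915) and kkv, the chitin synthase gene (0.892). These were the highest of 9380 genes and are descriptions. In the same libraries r with Gasp was -0.395 for sing and 0.425 for Np, and r between sing and Np was 0.081. Part of this ranking came with replicate 2. In the 10 libraries without it, r with Gasp was 0.43 for LOC105189829, 0.69 for nahoda, 0.54 for kkv, 0.85 for pot and 0.85 for uif. It was then -0.52 for sing and 0.64 for Np.

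Other chitin genes followed Gasp in part. Of the 12 other tested genes of chitin synthesis, binding and remodelling, 8 (66.7%) had r above 0.5 with Gasp in the 12 DMSO and JH3 libraries, against 21% of all tested genes. The median r was 0.61, against 0.03 for all. For sing 0 of 13 and for Np 3 of 13 chitin genes did so, the latter with 22.4% of all genes as the background. Of the apical matrix genes 4 of 6 had r above 0.5 with Gasp. Of the tracheal markers 3 of 4 did so, but all 3 are counted above. They were verm and serp, also on the chitin list, and uif, also on the apical matrix list. Genes of other kinds did so too: 10 of 17 ecdysone response genes and 8 of 17 neuronal genes. In the 10 libraries without replicate 2, r passed 0.5 for 4.2% of all tested genes. There r passed 0.5 for 8 of the 12 chitin genes, 3 of the 6 apical matrix genes and the same 3 tracheal markers. It did so for 0 of 17 ecdysone response genes and 0 of 17 neuronal genes. Gasp had only 6 to 19 reads in each of these 10 libraries. JH3 replicate 5 held the most Gasp of them (0.766 FPKM) and also the most verm, serp, uif and pot. The counts without that library were not tested. Among the 7 20E ants the gene closest to Gasp was uif, a membrane protein gene of tracheal cells in Drosophila (r = 0.999), followed by yellow-b (0.996), whereas kkv had r = -0.38. In those ants 2 of the 12 chitin genes passed 0.5 (33.7% of all genes), and 7 of 12 without 20E replicate 6 (22.8% of all genes). Other kinds also passed in the 7 ants: 6 of 6 apical matrix, 13 of 17 neuronal, 6 of 7 haemocyte and 6 of 8 glial genes. Without 20E replicate 6 these counts were 5, 6, 4 and 5. Of the 4 tracheal markers, 2 passed in the 7 ants and 4 without 20E replicate 6. Of the 17 ecdysone response genes, 10 passed in the 7 ants and 1 without 20E replicate 6. The covariation among the 7 ants was thus not particular to chitin or tracheal genes. Without 20E replicate 6 it took in all tracheal markers, most chitin genes and also haemocyte and glial genes.

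Not every cuticle gene was high where Gasp was high. Cpap3-d, a chitin-binding gene listed near Gasp, peaked at 28.8 FPKM in JH3 replicate 5 and 14.5 in 20E replicate 7, where Gasp measured 0.766 and 2.32. It measured 1.23 FPKM in 20E replicate 6, the library with the most Gasp. Even so, r between Cpap3-d and Gasp was 0.69 in the 12 DMSO and JH3 libraries and 0.76 in the 10 without replicate 2. Among the 7 20E ants it was 0.23, and 0.7 without 20E replicate 6. The chitin deacetylase gene serp was highest in JH3 replicate 5 (11.3 FPKM), 20E replicate 7 (10) and replicate 2 of DMSO (9.95) and 20E (9.93). The markers of tracheal cells that could be measured, vvl, verm, serp and uif, summed to 24.9 to 44.2 FPKM with DMSO, 25.5 to 43.4 with 20E and 19.2 to 51 with JH3. The defining tracheal genes trh and btl were not matched by symbol and are not analysed here. The share of tracheal or cuticle tissue in each brain, and its part in the spread of Gasp, was not tested.

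**Figure D4:**
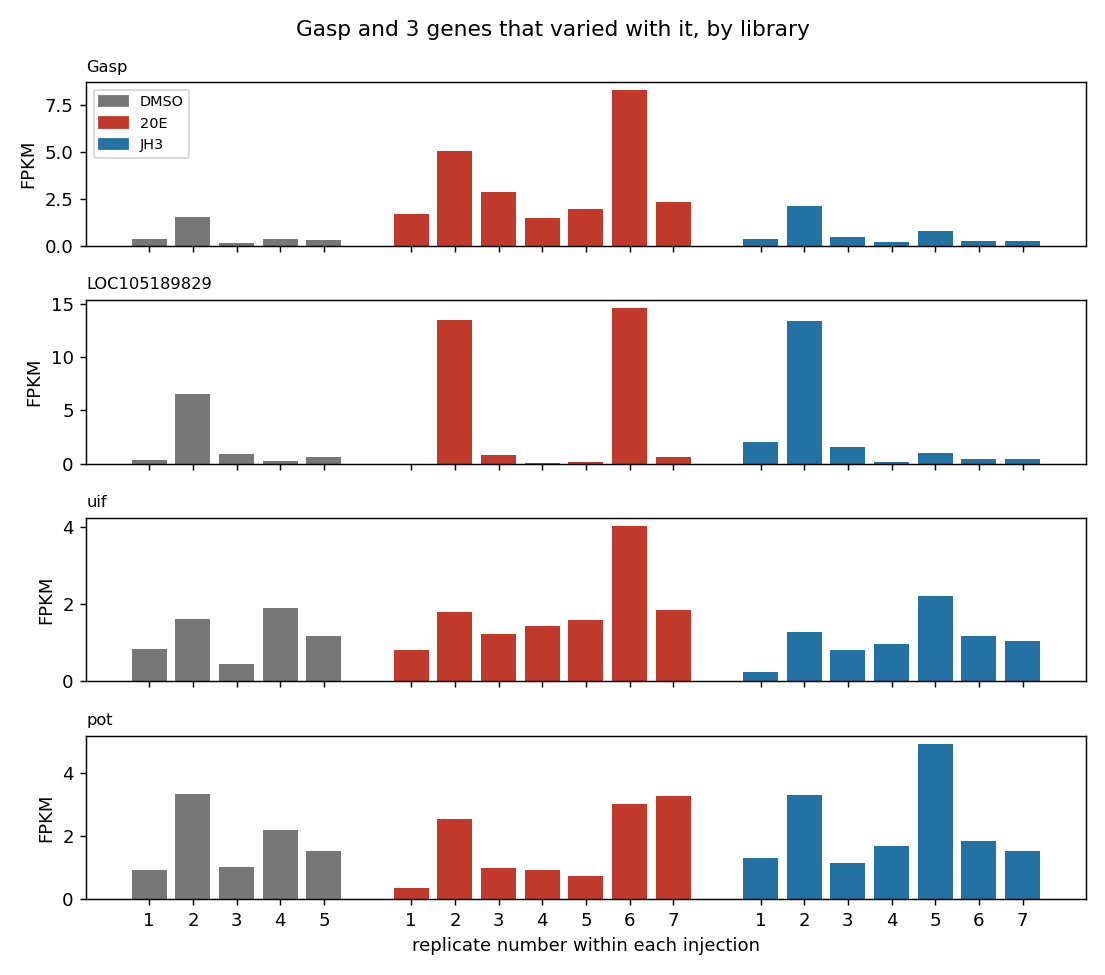
FPKM of Gasp, LOC105189829, uif and pot in each of the 19 libraries, by injection and replicate number. Gasp and LOC105189829 are both high in replicate 2 of each group and in 20E replicate 6, whereas pot is highest in JH3 replicate 5 at 4.95 FPKM.

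Genes that work with each member in Drosophila were counted beside the share of all tested genes that passed. The lists were chosen with earlier results of these data known, and their counts leave out the 3 members. Of 13 other tested genes of myoblast fusion, 1 rose with 20E and 0 fell (2.59% of all tested genes rose and 0.746% fell), with a median log2 difference of 0, against -0.01 for all tested genes. The gene that rose was SCAR, which promotes branched actin assembly, from 11.6 ± 3.33 FPKM (SD, n = 5) with DMSO to 24.2 ± 6.51 (n = 7) with 20E. Its log2 difference was 0.97 ± 0.14 (SE; limma, adjusted p = 0.000265). An unadjusted limma p under 0.05 was reached by 2 of the 13 between 20E and DMSO (15.4%, against 9% of all tested genes). Between JH3 and DMSO it was reached by 4 of the 13 (30.8%, against 8.3%). The partners of the fusion site measured 10.2 and 12.4 FPKM with DMSO and 20E for the adhesion receptor gene sns and 9.53 and 9.52 for the scaffold gene rols, and neither passed. With JH3 the transcription factor gene Mef2 rose, from 79.7 ± 28.4 FPKM to 143 ± 36.8 (log2 difference 0.75 ± 0.13; limma, adjusted p = 0.00509), and it was the 1 gene of 13 to pass (0.629% of all tested genes rose). Of the 9 tested structural muscle genes, 0 passed between JH3 and DMSO, and the cells in which Mef2 rose cannot be told from bulk tissue.

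For Gasp, 0 of the 12 other chitin genes passed between 20E and DMSO with limma, 0 had an unadjusted p under 0.05 (9% of all tested genes did), and 0 passed with voom on the reads. Their median log2 difference was -0.06. kkv measured 6.71 ± 2.62 FPKM with DMSO and 6.03 ± 1.97 with 20E, and the chitin deacetylase gene verm 12.8 ± 3.85 and 14.3 ± 4.01. For Np, the zona pellucida protein gene pio, whose product Np cleaves in Drosophila tracheae, measured 6.47 ± 1.46 FPKM with DMSO, 7.34 ± 3.99 with 20E and 5.85 ± 1.5 with JH3. None of the 6 tested apical matrix genes passed between 20E and DMSO with limma or with voom, and 0 had an unadjusted p under 0.05. The serine protease gene ndl and the protease homologue gene scaf measured 2.27 and 10.5 FPKM with DMSO and 2.34 and 8.94 with 20E. Of 17 genes of septate junctions and polarity, 2 rose with 20E (2.59% of all tested genes did): Gli, from 3.91 to 6.54 FPKM (log2 difference 0.57 ± 0.14; limma, adjusted p = 0.0237), and l(2)gl, from 9.89 to 14.2 (0.43 ± 0.1; adjusted p = 0.0231). An unadjusted p under 0.05 was reached by 4 of the 17 (23.5%, against 9% of all tested genes).

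Of the ecdysone response list, 9 of 17 tested genes rose with 20E and 0 fell, with a median log2 difference of 0.71. Of all tested genes 2.59% rose and 0.746% fell. Hr4 went from 1.15 ± 0.35 FPKM (SD, n = 5) to 33.1 ± 8.22 (n = 7), a log2 difference of 4.28 ± 0.14 (SE; limma, adjusted p = 4.39e-13). Eip74EF rose by 1.47 ± 0.11 and the ecdysteroid-inactivating gene Cyp18a1 by 1.42 ± 0.28 (adjusted p = 4.24e-08 and 0.00453). Structural muscle genes did not pass: 0 of 9 were called between 20E and DMSO with limma or voom (2 had an unadjusted p under 0.05), and Mhc measured 5.22 ± 2.68 FPKM with DMSO, 6.51 ± 3.05 with 20E and 8.41 ± 8.82 with JH3. Markers of cuticle (4 tested), haemocytes (7), fat body (6) and neurons (17) also gave 0 calls with either method, and an unadjusted p under 0.05 was reached by 0, 1, 2 and 2 of them. The glial list gave 1 higher of 8 between 20E and DMSO, again Gli, while 6 of 8 had an unadjusted p under 0.05, against 9% of all tested genes. Its summed level ran from 784 to 1080 FPKM with DMSO, 538 to 932 with 20E and 451 to 886 with JH3. Gat-a, a GABA transporter gene, averaged 54.1, 37.8 and 34.5 FPKM, and Gs2, a glutamine synthetase gene, 732, 558 and 501. With JH3, 2 of 8 glial genes fell, against 28 of the 9378 tested genes other than the members. They were moody (log2 difference -0.63, adjusted p = 0.0222) and Gat-a (-0.62, adjusted p = 0.0398; limma). The part of these glial levels in the results on sing, Np and Gasp was not tested. The eye list gave 1 higher and 1 lower of 10 with 20E, namely rdgA (log2 difference 1.06, adjusted p = 2.41e-05) and sev (-0.6, adjusted p = 0.0312; limma). A further 5 cuticle protein genes and 6 muscle genes, picked from the symbol table after the values were seen, gave 0 calls with limma and voom, and 0 reached an unadjusted p under 0.05.

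The genes listed next to each member on the chromosome were read from a RefSeq gene table (Hsal_v8.6), with no coordinates because the authors' build is not given. Beside sing, LOC105191432 rose with 20E too, from 1.4 ± 0.188 FPKM (SD, n = 5) to 2.97 ± 0.451 (n = 7), a log2 difference of 0.85 ± 0.11 (SE; limma, adjusted p = 6.83e-05). The gene on the other side, LOC105191434, measured 1.8 and 1.68 FPKM (log2 difference -0.12 ± 0.16). Np lies inside the span of NPF, the gene of the neuropeptide NPF. NPF measured 5.99 ± 1.29 FPKM with DMSO, 5.56 ± 0.895 with 20E and 5.42 ± 1.51 with JH3, and its log2 difference between 20E and DMSO was -0.05 ± 0.16 (limma, adjusted p = 0.999). The libraries keep the strand, but the setting used for counting is not stated, so reads shared by the overlapping genes cannot be told apart. flz, another serine protease gene next to Np, measured 1.58, 1.41 and 1.1 FPKM with DMSO, 20E and JH3.

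Gasp overlaps a long non-coding RNA gene, LOC105191839, which averaged 0.429 FPKM with DMSO, 0.324 with 20E and 0.344 with JH3 and was too low to be tested. The same limit on overlapping genes applies. The next tested gene on one side was dare, an adrenodoxin reductase gene needed to make ecdysteroids in Drosophila, at 10.4 ± 1.58 FPKM with DMSO and 11 ± 1.94 with 20E. Cpap3-d on the other side averaged 1.97 ± 2.49, 3.3 ± 5.12 and 5.72 ± 10.3 FPKM with DMSO, 20E and JH3, and its SD exceeded its mean in each group.

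**Figure D5:**
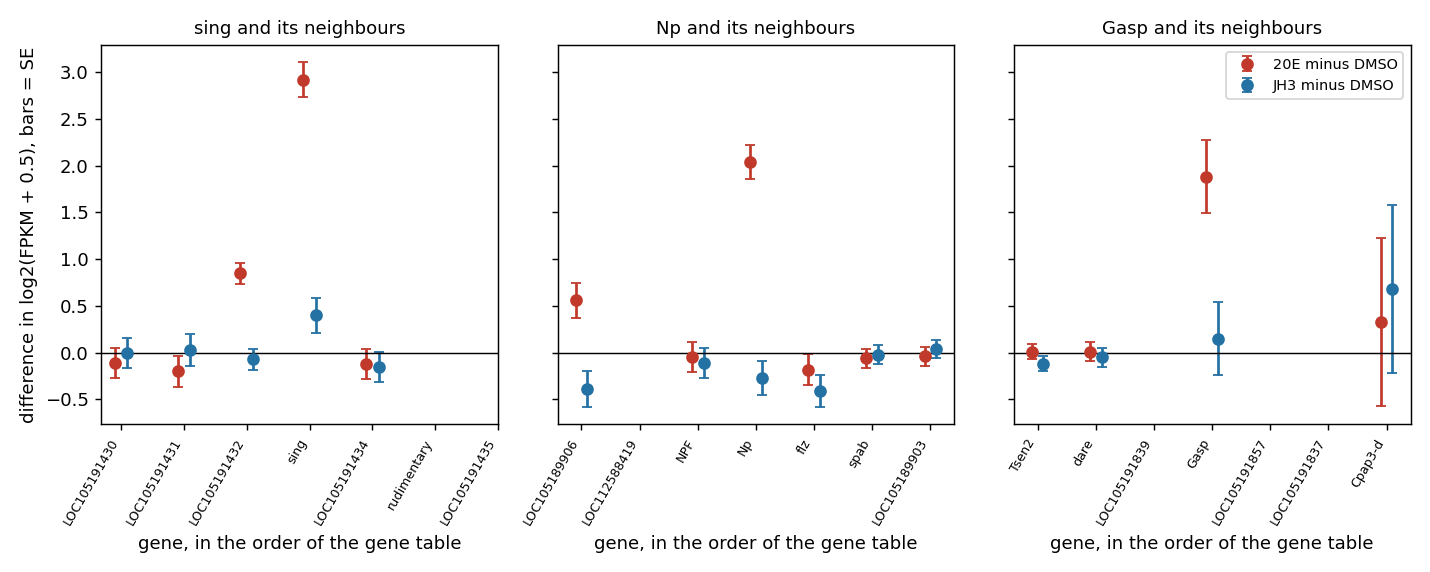
Differences in log2(FPKM + 0.5) with their SE for each member and the 3 genes listed on either side, in the order of the gene table, for 20E minus DMSO and JH3 minus DMSO. Genes without a point were too low to be tested. Beside sing, LOC105191432 lies at 0.85 for 20E, and NPF, which spans Np, lies at -0.05.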

How the data were processed

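RNA-seq libraries of 19 single worker brains were used, 7 for 20E, 7 for JH3 and 5 for DMSO. The series text calls them biological replicates. The authors deposited FPKM values for 14001 genes. Tools named in the submitters' processing notes are STAR, featureCounts, DESeq2 and bcl2fastq; versions, genome build and strand setting were not given in the sources used here. In each library the FPKM values are whole multiples of the value of 1 read, which gave back whole reads for 14001 genes (100%, within 0.02 of a whole number), and with them depth and counted gene length. Intervals and the 3-read detection level cover counting error only.

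Symbols came from a RefSeq gene table (Hsal_v8.6), which matched 13989 identifiers and left 12 unmatched. No table of sequences was available, so none are shown. Genes with at least 1 FPKM in at least 5 libraries (9381, 67%) were fitted as log2(FPKM + 0.5) with limma 3.58.1 in R 4.3.3. All 19 libraries entered the fit, which held group means and a run term, with limma's trended variance prior. The two-sided p-values were adjusted by Benjamini-Hochberg over all tested genes, with a threshold of 0.05. The fit was tested on simulated data. Tables and permutation tests used Python 3.11.15, numpy 2.4.6, pandas 2.3.3 and scipy 1.17.1, and figures matplotlib 3.10.9.

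The members and gene lists were chosen with earlier results of these data known. The genes named are the members, E75 and Hr4, the 5 genes most like each member, list members past the threshold (up to 6 per list and comparison) and defining markers. Other genes were named after their values were seen: genes with a low DMSO level, genes next to a member, genes that varied with Gasp, and list members given as examples. Left out of the lists were 4 symbols that name other genes (Cpr, vg, Dp and Trc8). Alternatives were other pseudocounts (0.1 and 1), no filter, no run term, a replicate block, scaling to total reads, voom on the reads, each run label alone, and each library left out in turn. Added after seeing the data were fits without replicate 2 of every group, without these and 20E replicate 6, and with DMSO and JH3 libraries only, and the spread and covariation of Gasp without those libraries.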

Additional observations from a re-analysis of the deposited data

Results flagged for a closer look

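Of the 9 sets of values (3 genes in 3 groups), 3 held a library far from the rest of its group, judged by its gap to the nearest other library over the whole range. Chance alone flags about 1 in 20 groups. sing was lowest in DMSO replicate 5, at 0.0972 FPKM from 3 reads, with the other 4 controls between 0.237 and 0.264. Gasp was highest in DMSO replicate 2, at 1.52 FPKM, with the other 4 controls between 0.154 and 0.357. Gasp was also highest in JH3 replicate 2, at 2.12 FPKM, with the other 6 libraries between 0.21 and 0.766.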

How the results depend on the processing

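The 3 genes stayed higher in 20E than in DMSO and JH3 under every alternative run, and no JH3 minus DMSO difference of a member passed the test in any. Sizes moved with the scale. With a pseudocount of 0.1 the 20E minus DMSO differences were 4.02 (sing), 2.54 (Np) and 2.6 (Gasp), and with 1 they were 2.28 for sing and 1.66 for Np. With voom on the reads they were 4.46, 2.73 and 2.9. The 20E minus JH3 differences were 3.22 (sing) and 3 (Np) at 0.1, 2.04 and 1.84 at 1, and 3.44, 3.25 and 2.48 (Gasp) with voom. A smaller pseudocount compresses low values less.

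Leaving out 1 library at a time, 20E minus DMSO ran from 2.82 to 3.07 for sing, 1.93 to 2.15 for Np and 1.64 to 2.11 for Gasp. 20E minus JH3 ran from 2.41 to 2.65, 2.2 to 2.41 and 1.46 to 1.94. JH3 minus DMSO ran from 0.32 to 0.44, -0.31 to -0.2 and -0.09 to 0.38, with Gasp at -0.01 without DMSO replicate 3 and -0.09 without JH3 replicate 2. The cause was not tested.

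The number of genes past the threshold was 313 between 20E and DMSO (193 with no run term, 120 and 50 in run labels 190514 and 200212, 218 to 353 leaving out 1 library). Between JH3 and DMSO it was 87 (49 with no run term, 151 scaled to total reads, 14 and 8 by run label, 60 to 137 leaving out 1 library, the highest without 20E replicate 6, and 54 without replicate 2 of every group). Between 20E and JH3 it was 501 (313 with no run term, 169 and 160 by run label, 411 to 570 leaving out 1 library). Single run labels hold fewer samples, and the other causes were not tested. Scaled to total reads, 229 of 341 calls between 20E and DMSO were higher, against 243 of 313.

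Among the 20E ants, sing with Np passed when run means were not removed (r = 0.91, exact permutation, adjusted p = 0.0286). With run means removed r was 0.91 as well. The permutation then crossed the run labels, in 5040 orders instead of 144, which allows a smaller p. Nothing is read from this pass. Leaving out 1 ant, r ran from 0.85 to 0.98 for sing with Np, 0.8 to 0.91 for sing with Gasp, 0.52 to 0.99 for Np with Gasp, 0.53 to 0.96, 0.88 to 0.98 and 0.07 to 0.93 for E75 with sing, Np and Gasp, and 0.19 to 0.74, 0.22 to 0.81 and -0.36 to 0.63 for Hr4. Hr4 changed sign with Np (-0.13) and Gasp (-0.2) without the 2 farthest ants, and with Gasp without 20E replicate 6 (-0.36).

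Over all tested genes, pairs of same-numbered libraries correlated from -0.429 to 0.368 in their deviations, not all above 0.1, so the numbers are not taken to pair the ants. The 3 pairs of replicate 2, in which Gasp was high, gave 0.015, 0.145 and 0.224. The block took the SE of Gasp in 20E minus DMSO from 0.39 to 0.29. With the replicate block the 20E minus DMSO differences were 2.86, 2 and 1.8 for sing, Np and Gasp, the JH3 minus DMSO differences 0.34, -0.32 and 0.07 (limma, adjusted p = 0.405, 0.402 and 0.919), and the counts 274, 96 and 531.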
